A study of Homo sapiens with 4 samples.

Results

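The 47 genes described here encode superoxide dismutases, peroxidases, the thioredoxin and glutathione systems and regulators of the transcription factor NRF2. They were chosen by symbol and are 47 of the 23228 genes listed for each library. RNA was sequenced from MDA-MB-231, an established human cell line derived from triple negative breast cancer, in cells sorted by the ALDEFLUOR assay (a fluorescent readout of aldehyde dehydrogenase activity) and kept in MammoCult medium. One group carried a lentiviral short hairpin RNA (shRNA) against KDM1A and the other a control shRNA, each with stable expression and with 2 libraries per group. The labels name 1 KDM1A shRNA and no rescue. KDM1A loss, off-target action of that hairpin and drift between the stable cultures therefore cannot be told apart. Nor can they be told apart from a difference in cell identity between the cultures, which the CDKN2A and MTAP reads given below raise. The series describes runs in duplicate without saying whether both libraries of a group had cultures of their own. All p-values are thus against the spread between 2 libraries, which may be only technical.

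Cells remove superoxide and peroxides in steps. Superoxide dismutases turn superoxide into hydrogen peroxide, and catalase, glutathione peroxidases and peroxiredoxins turn peroxide into water or alcohols. Peroxidases draw their electrons from glutathione or thioredoxin, which reductases recharge with NADPH. NRF2, encoded by NFE2L2, induces many of these enzymes through antioxidant response elements, and KEAP1 holds it in check by directing its ubiquitination. KDM1A, also called LSD1, is a demethylase of histone H3 that works with the CoREST repressor complex.

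Gene reads per library were between 23902900 and 26923678, and 14012 genes passed the filter on low counts. Levels are given as CPM (counts relative to the library total, TMM-scaled) and changes as log2 fold change of KDM1A shRNA over control shRNA with its standard error (SE). A gene was called higher or lower at an edgeR adjusted p under 0.05. KDM1A had 561 and 649 reads in the KDM1A shRNA libraries, against 4660 and 4059 reads in the control libraries. Its level was 24.3 ± 1.22 CPM in KDM1A shRNA cells and 171 ± 4.73 CPM in control cells (SD, n = 2 each), so both KDM1A shRNA libraries matched their label. MDA-MB-231 cells are known to lack CDKN2A, yet CDKN2A had 13 and 19 reads in the KDM1A shRNA libraries and 323 and 329 reads in the control libraries. MTAP, its neighbour, had 15 and 14 reads in the KDM1A shRNA libraries and 271 and 256 reads in the controls. In this respect the control libraries go against the label of the line, the KDM1A shRNA libraries less so, and the part of this difference in the results below was not tested. No result can be given without the control libraries as a group. Of 6 genes known for a high level in the line, such as VIM and CD44, 4 were higher and 2 lower, and they summed to 5673 and 5750 CPM in the KDM1A shRNA libraries and 4780 and 4720 CPM in the controls. Of 6 genes known for a low level in such lines 4 were tested, all higher, with sums of 131 and 134 CPM in the KDM1A shRNA libraries and 101 and 101 CPM in the controls, and ESR1 had 0 and 1 reads in the KDM1A shRNA libraries and 7 and 9 reads in the control libraries. Of 5 fibroblast markers, 3 were higher and 2 lower, and their summed level was 90.6 and 82.6 CPM in the KDM1A shRNA libraries and 136 and 131 CPM in the controls. All 3 endothelial markers were lower. They summed to 21.6 and 22.2 CPM in the KDM1A shRNA libraries and 27.7 and 27.3 CPM in the controls. Most of each sum was PECAM1, at 21.1 and 21.9 CPM in the KDM1A shRNA libraries and 26.0 and 26.0 CPM in the controls. VWF was scarce, with 3 and 4 reads in the KDM1A shRNA libraries and 24 and 13 reads in the controls. Of 4 leukocyte markers, 1 (CD68) passed the filter and was lower, the sums were 124 and 122 CPM in the KDM1A shRNA libraries and 174 and 176 CPM in the controls, and PTPRC had 4 and 3 reads in the KDM1A shRNA libraries and 2 and 2 reads in the controls. Beside these marker counts, 27.3% of all genes tested were called higher and 28.8% lower. The part of these markers in the results was not tested. In bulk RNA, fewer cells of a type and less RNA per cell cannot be told apart.

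Of the 47 members 46 passed the filter. GPX2, the gastrointestinal glutathione peroxidase, had 0 reads in every library, which allows up to 3 counts per library or 0.111 to 0.126 CPM. The members moved in both directions, and most moved little. Of 46 tested, 18 were higher, 10 were lower and 18 were not called in KDM1A shRNA cells. Over all genes 56.1% were called, 27.3% as higher and 28.8% as lower, and among the members 60.9% were called, 39.1% as higher and 21.7% as lower. The share called is near that of all genes. The median log2 fold change was 0.024 over the members and -0.0047 over all genes tested. With the sign left out, the median was 0.232 over the members and 0.236 over all genes tested. Small changes were thus not particular to the members. Among the 28 called members 20 changed by less than 1.5-fold. The 8 that changed more were SOD2, TXNIP and GSTM2, which were lower, and GGT1, NQO1, GPX8, GPX3 and AKR1C2, which were higher. Over all genes, 6.86% were higher and 12.4% lower by 1.5-fold or more, and for 2-fold or more the shares were 3.07% and 8.54%. By 2-fold or more, 2 members were lower and 1 was higher. Genes of low level weigh on these shares, and 40 members had an average log2 CPM of 3 or more. Of the 10081 genes at that level 32.1% were higher and 26.5% lower, against 40% and 22.5% of the 40 members. By 2-fold or more, 135 of those 10081 genes were higher and 188 lower, against 0 and 2 of the 40 members. No overlap between the groups was seen in 38 of the 46 members (82.6%), against 77.7% of all genes tested.

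**Figure D1:**
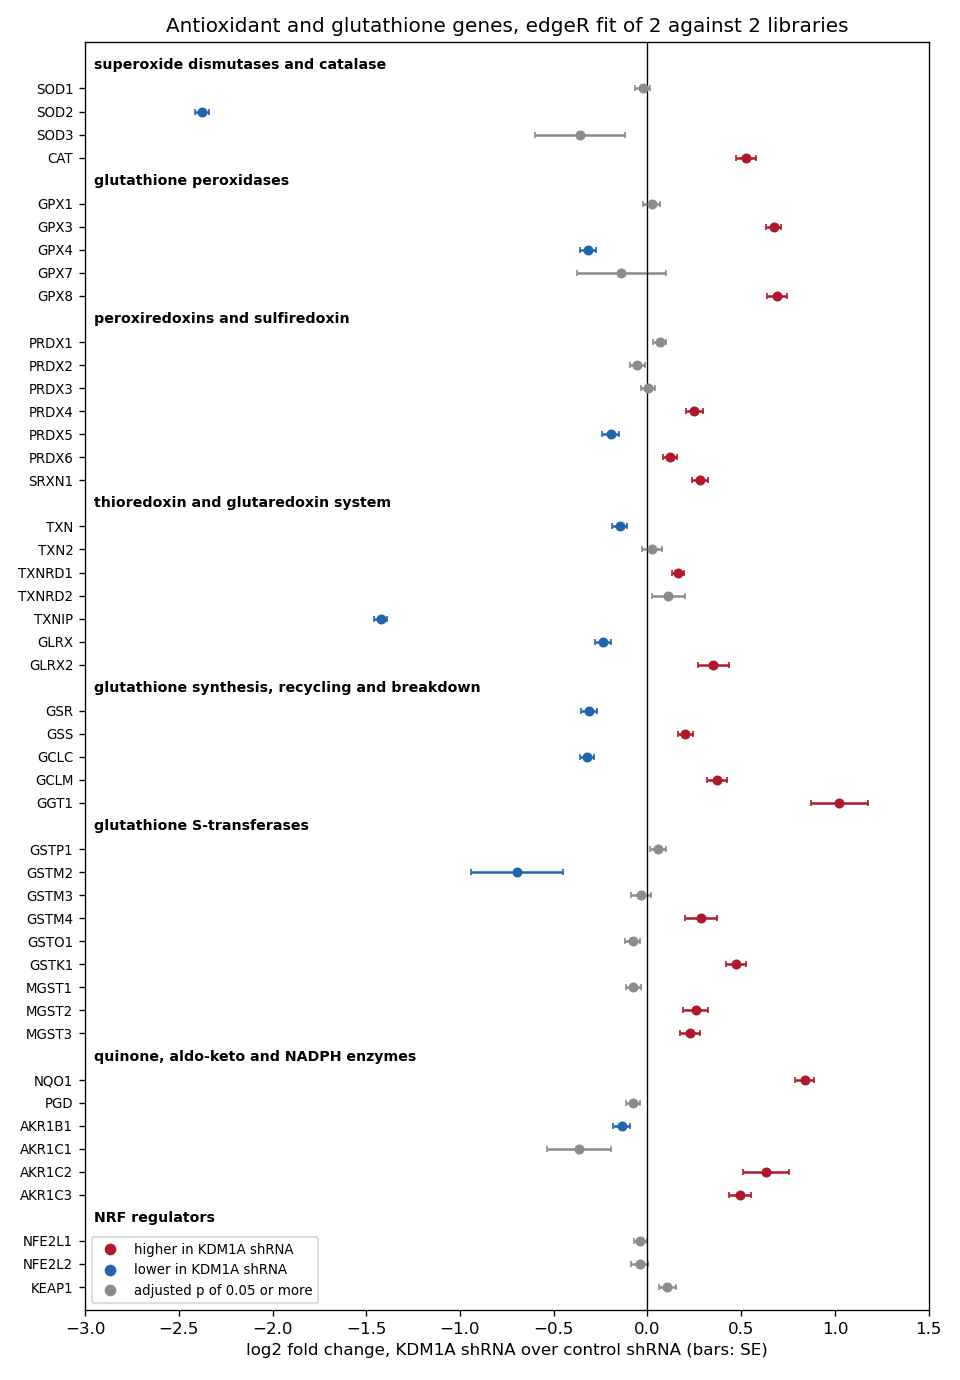
Each point is the log2 fold change (x axis, KDM1A shRNA over control shRNA) of 1 of the 46 members tested, grouped by role down the page, with bars for the SE and colour for the edgeR call. SOD2 at -2.38 and TXNIP at -1.42 lie far left of all others, and most remaining members lie close to 0.

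Among the superoxide dismutases the mitochondrial form was lower. SOD2, the manganese enzyme of the matrix, lies on chromosome 6 from 160090101 to 160183561 (minus strand, GRCh37). It had 3993 and 4231 reads in the KDM1A shRNA libraries, against 23501 and 20384 reads in the control libraries. Its level was 165 ± 1.94 CPM in KDM1A shRNA cells and 859 ± 26.3 CPM in control cells (SD, n = 2 each), a log2 fold change of -2.38 (SE 0.04, edgeR adjusted p = 2.0e-15). The groups lay far apart, with KDM1A shRNA cells at 19.3% of the control level. SOD1, the copper and zinc enzyme of the cytosol, stood at 175 and 179 CPM in the KDM1A shRNA libraries and 181 and 179 CPM in the control libraries, with a log2 difference of -0.03 (95% interval -0.11 to 0.06). The ratio of SOD2 to SOD1 reads was 0.955 and 0.915 in the KDM1A shRNA libraries, against 4.84 and 4.70 in the control libraries. SOD3, the extracellular enzyme, was scarce, with 31 and 35 reads in the KDM1A shRNA libraries and 47 and 40 reads in the controls, and did not pass (-0.36, SE 0.24). Catalase, the peroxisomal enzyme that breaks down hydrogen peroxide, rose. CAT had 110 and 100 CPM in the KDM1A shRNA libraries, against 73.3 and 72.6 CPM in the controls (0.53, SE 0.05, edgeR adjusted p = 9.3e-07). The SOD2 and CAT calls held in all 13 alternative settings. Exons of SOD2 overlap those of WTAP on the opposite strand over 437 bases and those of ACAT2 over 133 bases, PRDX1 overlaps MMACHC over 501 bases, GSS overlaps MYH7B over 138 and MGST2 overlaps MAML3 over 252. The sources used here do not state whether counting used the strand, so the counts over these shared bases are uncertain.

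**Figure D2:**
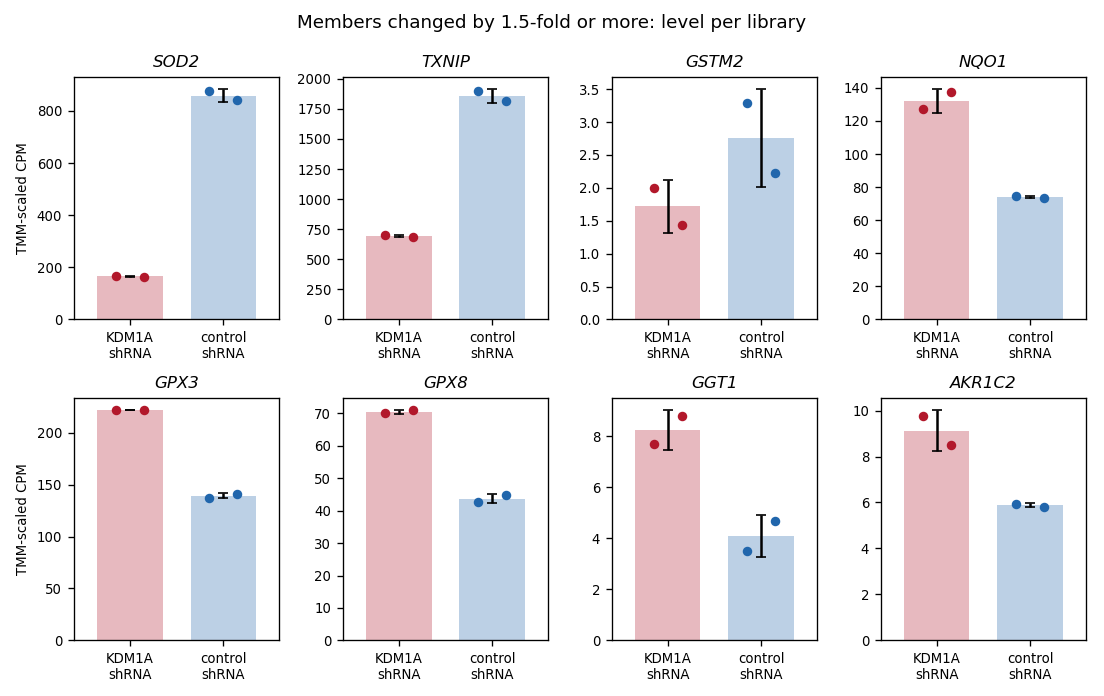
Points are TMM-scaled CPM of single libraries, bars their mean and error bars the SD (n = 2 per group), for the 8 members changed by 1.5-fold or more. In SOD2 the KDM1A shRNA libraries stand at 167 and 164 CPM and the control libraries at 878 and 840 CPM, while the GSTM2 libraries of the 2 groups nearly meet, at 2.00 and 1.43 CPM against 3.29 and 2.23 CPM.

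Glutathione peroxidases were split. GPX3, the secreted plasma enzyme, had 5317 and 5721 reads in the KDM1A shRNA libraries and 3679 and 3418 reads in the controls. This was 222 ± 0.197 CPM in KDM1A shRNA cells and 139 ± 2.49 CPM in control cells (SD, n = 2 each). The log2 fold change was 0.67 (SE 0.04, edgeR adjusted p = 2.9e-09). GPX8, a peroxidase of the endoplasmic reticulum membrane, had 1677 and 1831 reads in the KDM1A shRNA libraries, against 1144 and 1085 reads in the controls (0.69, SE 0.05, edgeR adjusted p = 7.2e-08). GPX4, which reduces lipid peroxides in membranes and thereby restrains ferroptosis, was lower. It had 5244 and 5665 reads in the KDM1A shRNA libraries, against 7071 and 6860 reads in the controls (-0.32, SE 0.04, edgeR adjusted p = 1.2e-05). GPX1, the abundant cytosolic enzyme, overlapped between groups, at 236 and 247 CPM in the KDM1A shRNA libraries and 227 and 248 CPM in the controls, with a log2 difference of 0.02 (95% interval -0.07 to 0.12). It passed as higher without control library 2 (edgeR adjusted p = 0.013). GPX7, a relative in the endoplasmic reticulum, had 35 and 42 reads in the KDM1A shRNA libraries and 47 and 40 reads in the controls and did not pass (-0.14, SE 0.24). Thus 2 of 5 tested peroxidases were higher, 1 was lower and 2 were not called. The share called, 60%, is near the 56.1% of all genes. Of the 100-base stretches of GPX1 9.62% also occur in transcripts at other loci, so the GPX1 count is uncertain.

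Peroxiredoxins, which reduce peroxides through a reactive cysteine, changed by small amounts. Their 6 genes and SRXN1 lay between -0.20 and 0.28 on the log2 scale, with 3 higher, 1 lower and 3 not called. The share called, 57.1%, is near the 56.1% of all genes. SRXN1, sulfiredoxin, which restores overoxidised peroxiredoxins, had 141 and 146 CPM in the KDM1A shRNA libraries and 118 and 119 CPM in the controls (0.28, SE 0.04, edgeR adjusted p = 5.3e-05). PRDX4 of the endoplasmic reticulum was at 116 and 120 CPM in the KDM1A shRNA libraries, against 99.9 and 98.2 CPM in the controls (0.25, SE 0.04). PRDX6, which uses glutathione, was higher by 0.12 (SE 0.04), a call lost without KDM1A shRNA library 1 (edgeR adjusted p = 0.17) or library 2 (0.10). PRDX5, found in mitochondria and peroxisomes, was lower by a log2 change of -0.20 (SE 0.05), a call lost without KDM1A shRNA library 1 (edgeR adjusted p = 0.051). The group's most abundant transcript was that of PRDX1, with 12338 and 13284 reads in the KDM1A shRNA libraries and 13470 and 11689 reads in the controls. Scaled, these were 515 and 515 CPM in the KDM1A shRNA libraries and 503 and 482 CPM in the controls, and PRDX1 did not pass (0.06, 95% interval -0.01 to 0.14), though it did without control library 1 (edgeR adjusted p = 0.00062). Neither PRDX2 of the cytosol (-0.05, SE 0.04) nor PRDX3 of mitochondria (95% interval -0.08 to 0.09) was called. PRDX3 was measured deeply, with 9598 and 11048 reads in the KDM1A shRNA libraries and 11132 and 9986 reads in the controls.

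In the thioredoxin system the largest change was in its inhibitor. TXNIP, which binds and blocks thioredoxin and restrains glucose uptake, is encoded on chromosome 1 from 145438490 to 145442635 (plus strand, GRCh37). It had 16755 and 17669 reads in the KDM1A shRNA libraries, against 50879 and 44010 reads in the control libraries. Its level was 692 ± 10.5 CPM in KDM1A shRNA cells and 1857 ± 60.6 CPM in control cells (SD, n = 2 each), a log2 fold change of -1.42 (SE 0.04, edgeR adjusted p = 3.0e-13). TXN, thioredoxin itself, was slightly lower, at 226 and 213 CPM in the KDM1A shRNA libraries and 244 and 242 CPM in the controls (-0.15, SE 0.04). This TXN call was lost without KDM1A shRNA library 2 (edgeR adjusted p = 0.22). The ratio of TXNIP to TXN reads was 3.10 and 3.22 in the KDM1A shRNA libraries, against 7.80 and 7.49 in the controls. TXNRD1, the cytosolic thioredoxin reductase, was higher, with 17051 and 18477 reads in the KDM1A shRNA libraries and 17237 and 15307 reads in the controls, which scaled to 712 and 716 CPM in the KDM1A shRNA libraries and 644 and 631 CPM in the controls (0.16, SE 0.03, edgeR adjusted p = 0.00075). The mitochondrial partners TXN2 (0.02, 95% interval -0.09 to 0.14) and TXNRD2 (0.11, 95% interval -0.08 to 0.30) did not pass. TXNRD2 did pass without control library 2 (edgeR adjusted p = 0.029). The glutaredoxins, which reduce disulfides with glutathione, moved in opposite directions. GLRX of the cytosol had 94.5 and 98.1 CPM in the KDM1A shRNA libraries and 115 and 112 CPM in the controls (-0.24, SE 0.04). GLRX2, which has mitochondrial and nuclear forms, had 18.3 and 19.0 CPM in the KDM1A shRNA libraries and 14.4 and 14.9 CPM in the controls (0.35, SE 0.08).

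Per kilobase of the GENCODE canonical transcript, TXNIP ranked 1 among the 47 members in control cells, with a level of 641 CPM per kilobase, and 9 in KDM1A shRNA cells, with 239. PRDX1 (545 in KDM1A shRNA cells and 521 in control cells), MGST1 (436 and 459) and TXN (297 and 330) led the order in KDM1A shRNA cells. The canonical transcript need not be the one these cells express, and that of SOD2 is 14167 bases long, so the place of SOD2 in the order is uncertain.

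The 5 members that make, recycle or break down glutathione all passed the test, 3 higher and 2 lower, where 56.1% of all genes were called. The subunits of the first enzyme parted. Glutamate-cysteine ligase joins glutamate and cysteine in the rate-limiting step of glutathione synthesis. Its catalytic subunit GCLC had 3645 and 3924 reads in the KDM1A shRNA libraries, against 5106 and 4604 reads in the controls. That was 152 ± 0.0787 CPM in KDM1A shRNA cells and 190 ± 0.617 CPM in control cells (SD, n = 2 each). GCLC was lower by a log2 fold change of -0.32 (SE 0.04, edgeR adjusted p = 6.0e-06). The modifier subunit GCLM had 1701 and 1878 reads in the KDM1A shRNA libraries, against 1498 and 1341 reads in the controls, or 71.0 and 72.8 CPM in KDM1A shRNA libraries and 55.9 and 55.3 CPM in the controls (0.37, SE 0.05, edgeR adjusted p = 2.3e-05). The ratio of GCLC to GCLM reads was 2.14 and 2.09 in the KDM1A shRNA libraries, against 3.41 and 3.43 in the controls, a ratio given with no test. GSS, which adds glycine in the second step, was higher, with 4460 and 4698 reads in the KDM1A shRNA libraries and 4206 and 3959 reads in the controls (0.20, SE 0.04). GSR, which reduces oxidised glutathione, was lower, at 124 and 130 CPM in the KDM1A shRNA libraries and 158 and 157 CPM in the controls (-0.31, SE 0.04). GGT1, which cleaves glutathione outside the cell, had 184 and 227 reads in the KDM1A shRNA libraries, against 94 and 113 reads in the controls (1.02, SE 0.15, edgeR adjusted p = 4.8e-05). It was the 1 member higher by 2-fold or more, and it fell short of 2-fold without KDM1A shRNA library 2, without control library 1, with upper quartile scaling and with a minimum mean of 5 CPM, with log2 values between 0.83 and 1.23 over the alternatives. Of its 100-base stretches 21.0% also occur in transcripts of genes at other loci, so its count is uncertain.

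**Figure D3:**
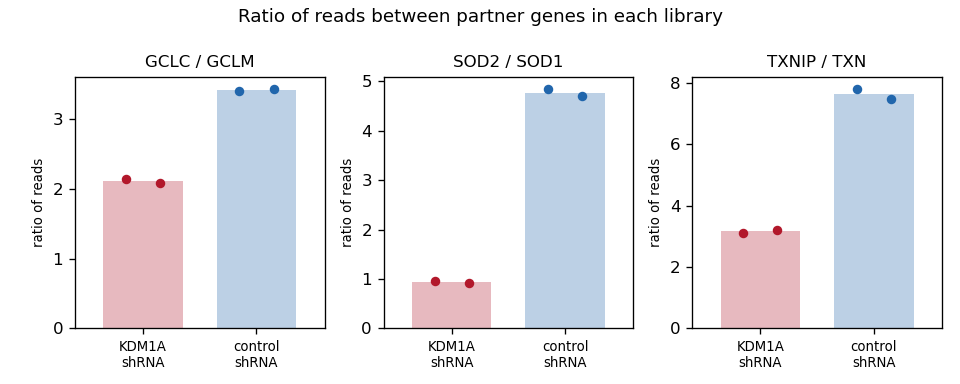
Points are the ratio of reads between partner genes in single libraries and bars the mean of 2 libraries per group. GCLC to GCLM stands at 2.14 and 2.09 in the KDM1A shRNA libraries against 3.41 and 3.43 in the controls, and the ratios of SOD2 to SOD1 and of TXNIP to TXN are likewise lower in KDM1A shRNA cells.

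Promoter letters are shown for 4 members whose changes differ: TXNIP, which was lower, the oppositely moving subunits GCLM and GCLC, and GSTP1, which was not called. The core of the antioxidant response element was searched as TGACNNNGC, and the carbohydrate response element, bound by MondoA and ChREBP, by its usual pair of boxes, both on either strand in the 250 bases before each RefSeq start. Capitals mark the matches. The sequences are from RefSeq (GRCh38.p14), and each was matched letter for letter to GRCh37: TXNIP at chr1:145438240-145438489 (plus strand), GCLM at chr1:94374987-94375236 (minus strand), GCLC at chr6:53409900-53410149 (minus strand) and GSTP1 at chr11:67351033-67351282 (plus strand).
TXNIP: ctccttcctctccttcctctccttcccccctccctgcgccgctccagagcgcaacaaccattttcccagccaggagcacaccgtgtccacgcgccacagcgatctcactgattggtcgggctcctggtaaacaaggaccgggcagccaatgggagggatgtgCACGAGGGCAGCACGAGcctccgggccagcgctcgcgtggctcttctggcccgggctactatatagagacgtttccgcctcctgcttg
GCLM: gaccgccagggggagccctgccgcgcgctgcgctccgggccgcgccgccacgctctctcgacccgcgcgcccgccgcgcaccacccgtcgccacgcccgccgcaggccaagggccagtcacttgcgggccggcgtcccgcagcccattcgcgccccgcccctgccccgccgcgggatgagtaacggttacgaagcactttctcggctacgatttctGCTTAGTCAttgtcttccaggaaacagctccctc
GCLC: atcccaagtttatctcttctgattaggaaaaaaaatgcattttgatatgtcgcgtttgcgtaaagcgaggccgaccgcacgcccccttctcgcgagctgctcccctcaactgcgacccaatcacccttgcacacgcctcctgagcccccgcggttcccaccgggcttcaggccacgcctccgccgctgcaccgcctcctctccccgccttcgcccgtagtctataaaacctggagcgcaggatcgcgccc
GSTP1: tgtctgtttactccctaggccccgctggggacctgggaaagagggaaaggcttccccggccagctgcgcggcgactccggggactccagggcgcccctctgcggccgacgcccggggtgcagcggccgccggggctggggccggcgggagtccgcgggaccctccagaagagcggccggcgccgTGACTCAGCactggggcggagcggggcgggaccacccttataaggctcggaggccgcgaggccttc

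RefSeq windows were found for 40 of the 47 members, 60 windows in all. Of these, 9 (15%) held TGACNNNGC, against 10.9% of 35116 promoter windows. The 8 members with a match were GPX2, TXNRD1, GCLM, GGT1, GSTP1, GSTO1, PGD and KEAP1. Of the 7 tested, TXNRD1, GCLM and GGT1 were higher, 0 were lower and 4 were not called. Of 32 members without a match 12 were higher, 9 were lower and 11 were not called. Over all genes 27.3% were higher and 28.8% lower. With only 7 members, a link between match and direction was not tested. The pattern for the carbohydrate response element was found in 1 member window, the printed one of TXNIP, 88 to 72 bases before the start. It was found in 16 (0.0456%) of all windows. A match describes these letters and no more, and GCLC and NQO1, known NRF2 targets, had none in this window.

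Glutathione S-transferases couple glutathione to other molecules. Of 9 members 4 were higher, 1 was lower and 4 were not called. The share called, 55.6%, is near the 56.1% of all genes. GSTK1, of mitochondria and peroxisomes, changed most among those of more than 10 CPM, with 96.1 and 93.4 CPM in the KDM1A shRNA libraries and 65.0 and 71.9 CPM in the controls (0.47, SE 0.05, edgeR adjusted p = 4.0e-06). The membrane enzymes MGST2 (0.26, SE 0.07) and MGST3 (0.23, SE 0.06) were higher, calls lost without KDM1A shRNA library 1 (edgeR adjusted p = 0.052 and 0.098). MGST1, the most abundant of the family, had 9791 and 10256 reads in the KDM1A shRNA libraries and 10992 and 10644 reads in the controls. It did not pass (-0.07, 95% interval -0.16 to 0.01), but did as lower without control library 1 (edgeR adjusted p = 2.4e-05) and with upper quartile scaling (0.044). GSTP1, the main soluble form in many tumours, was at 196 and 189 CPM in the KDM1A shRNA libraries and 178 and 193 CPM in the controls (0.06, 95% interval -0.04 to 0.15), and passed as higher without control library 2 (edgeR adjusted p = 0.0040). GSTO1 (-0.08, SE 0.04) and GSTM3 (-0.03, SE 0.05) were not called, GSTO1 passing as lower without control library 1 (edgeR adjusted p = 0.036), with upper quartile scaling (0.040) and with a minimum mean of 5 CPM (0.046). GSTM2 was lower with few reads, 48 and 37 in the KDM1A shRNA libraries and 88 and 54 in the controls (-0.70, SE 0.25, edgeR adjusted p = 0.026). That call was lost in DESeq2 (adjusted p = 0.13), without KDM1A shRNA library 2 (log2 fold change -0.47, edgeR adjusted p = 0.20) and without control library 1 (-0.38, 0.27). GSTM4 was higher (0.29, SE 0.09), a call lost in DESeq2 (adjusted p = 0.062) and without KDM1A shRNA library 1 (0.087). GSTM2 overlaps GSTM1 over 559 bases and shares 2.91% of its 100-base stretches with other loci. That share leaves out GSTM1, whose span overlaps that of GSTM2, so the GSTM2 count is uncertain. GSTM4 shares 4.56%.

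Among the reductases, NQO1 changed most. NQO1, which reduces quinones with NADPH or NADH and is a standard readout of NRF2, lies on chromosome 16 from 69740899 to 69760571 (minus strand, GRCh37). It had 3042 and 3544 reads in the KDM1A shRNA libraries, against 1991 and 1786 reads in the controls. This was 132 ± 7.31 CPM in KDM1A shRNA cells and 74.0 ± 0.510 CPM in control cells (SD, n = 2 each), and the log2 fold change was 0.84 (SE 0.05, edgeR adjusted p = 3.4e-09). The aldo-keto reductases that act on steroids and aldehydes differed among neighbours on chromosome 10. AKR1C3 had 52.9 and 56.5 CPM in the KDM1A shRNA libraries, against 39.2 and 38.6 CPM in the controls (0.49, SE 0.06). AKR1C2 had 234 and 219 reads in the KDM1A shRNA libraries and 159 and 141 reads in the controls (0.63, SE 0.12, edgeR adjusted p = 0.00053), while AKR1C1 had 70 and 75 reads in the KDM1A shRNA libraries and 105 and 87 in the controls and did not pass (-0.37, SE 0.17). Of the 100-base stretches of AKR1C2 27.8%, of AKR1C1 12.6% and of AKR1C3 7.82% also occur in transcripts at other loci, so the split of reads between these genes is uncertain. AKR1B1, aldose reductase, was lower by a small amount, at 203 and 210 CPM in the KDM1A shRNA libraries and 215 and 239 CPM in the controls, or 4871 and 5411 reads in the KDM1A shRNA libraries and 5770 and 5808 reads in the controls (-0.14, SE 0.05). The AKR1B1 call was lost in DESeq2 (adjusted p = 0.052), without KDM1A shRNA library 1 (edgeR adjusted p = 0.21) or library 2 (0.087), and without control library 2 (0.11; log2 fold change -0.06). PGD, which makes NADPH in the pentose phosphate pathway, had 5380 and 5848 reads in the KDM1A shRNA libraries and 6302 and 5822 reads in the controls. It did not pass (-0.07, 95% interval -0.15 to 0.0049), but did as lower without control library 1 (edgeR adjusted p = 0.015), with upper quartile scaling (0.033) and with a minimum mean of 5 CPM (0.036).

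None of the 3 regulators was called. NFE2L2 had 3118 and 3231 reads in the KDM1A shRNA libraries, against 3615 and 3093 reads in the controls, or 130 and 125 CPM in KDM1A shRNA libraries and 135 and 128 CPM in the controls. The groups overlapped, and the log2 difference was -0.04 (95% interval -0.14 to 0.06). NFE2L1, which encodes the related factor NRF1, had 10322 and 11226 reads in the KDM1A shRNA libraries and 12084 and 10643 reads in the controls (-0.04, 95% interval -0.11 to 0.04), and passed as lower without control library 2 (edgeR adjusted p = 0.042). KEAP1 was at 90.1 and 93.1 CPM in the KDM1A shRNA libraries and 84.3 and 85.9 CPM in the controls (0.11, 95% interval 0.01 to 0.21; edgeR adjusted p = 0.065), and passed as higher without control library 2 (0.028). These are transcript levels, and NRF2 is controlled largely through protein stability. Exons of NFE2L2 overlap those of HNRNPA3 on the opposite strand over 3509 bases.

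The members known as direct NRF2 targets did not move as a block. Of 12 tested, NQO1, GCLM, TXNRD1, SRXN1, AKR1C2 and AKR1C3 were higher, GCLC, GSR and TXN were lower and 3 (PGD, PRDX1 and AKR1C1) were not called, where 27.3% of all genes were higher and 28.8% lower. A list of 20 further NRF2 targets held 9 higher, 7 lower and 4 not called. HMOX1, heme oxygenase, had 560 and 596 reads in the KDM1A shRNA libraries and 362 and 345 reads in the controls (0.75, SE 0.08). SLC7A11, the cystine importer that feeds glutathione synthesis, had 62.4 and 63.4 CPM in the KDM1A shRNA libraries and 43.5 and 40.4 CPM in the controls (0.58, SE 0.06). IDH1, a cytosolic source of NADPH, was also higher (0.52, SE 0.04, edgeR adjusted p = 5.5e-08). FTH1, the ferritin heavy chain, was lower, at 402 and 401 CPM in the KDM1A shRNA libraries and 1173 and 1203 CPM in the controls (-1.57, SE 0.03, edgeR adjusted p = 7.1e-14).

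**Figure D4:**
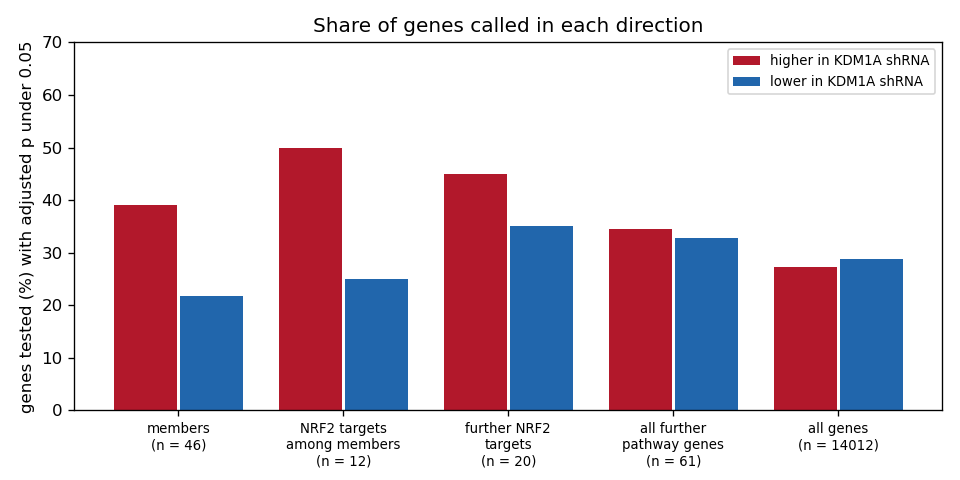
Bars are the percentage of genes tested that were called higher (left bar) or lower (right bar) in KDM1A shRNA cells, for the members, the NRF2 targets among them, further lists and all genes. Members were higher in 39.1% and lower in 21.7%, against 27.3% and 28.8% of all genes. At an average log2 CPM of 3 or more (not drawn) the shares were 40% and 22.5% of members, against 32.1% and 26.5% of genes.

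Of 8 partners and repressors of NRF2, 1 was higher, 5 were lower and 2 were not called, where 56.1% of all genes were called and 28.8% were lower. BACH1, which competes with NRF2 for antioxidant response elements and represses HMOX1, had 1684 and 1765 reads in the KDM1A shRNA libraries and 3392 and 2845 reads in the controls (-0.82, SE 0.05, edgeR adjusted p = 5.8e-09). MAFF, a small MAF protein that pairs with both factors, had 578 and 634 reads in the KDM1A shRNA libraries and 1209 and 1177 reads in the controls (-0.94, SE 0.07). Across all 72 further pathway genes, 61 were tested, of which 21 were higher and 20 lower. Without KDM1A shRNA library 1 the count lower was 11, and without KDM1A shRNA library 2 it was 13. The other lists were split as well: 2 higher and 1 lower of 6 further glutathione S-transferases tested, 2 and 4 of 10 genes of glutathione metabolism, and 4 and 2 of 13 genes for thioredoxin-like proteins, methionine repair, sestrins, NQO2 and CCS. GGT7, a relative of GGT1, had 215 and 193 reads in the KDM1A shRNA libraries and 540 and 506 reads in the controls (-1.32, SE 0.10), opposite to GGT1.

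NADPH oxidases make superoxide or hydrogen peroxide, the substrates of the enzymes above. Of 11 genes for oxidases and their subunits 4 passed the filter, 3 as higher and 1 as lower, where 56.1% of all genes were called. NOX5, a calcium-activated oxidase, had 1550 and 1699 reads in the KDM1A shRNA libraries, against 627 and 637 reads in the controls (1.40, SE 0.07, edgeR adjusted p = 2.7e-10). CYBB and CYBA were chosen after their values were seen. CYBB, the catalytic subunit of the phagocyte oxidase, was near the floor, with 59 and 47 reads in the KDM1A shRNA libraries and 17 and 15 in the controls (1.76, SE 0.29). CYBA, the membrane subunit that stabilises several oxidases, was lower, at 48.1 and 46.6 CPM in the KDM1A shRNA libraries and 52.2 and 71.2 CPM in the controls (-0.38, SE 0.10), and its control libraries differed more from each other than control library 1 did from the KDM1A shRNA libraries.

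**Figure D5:**
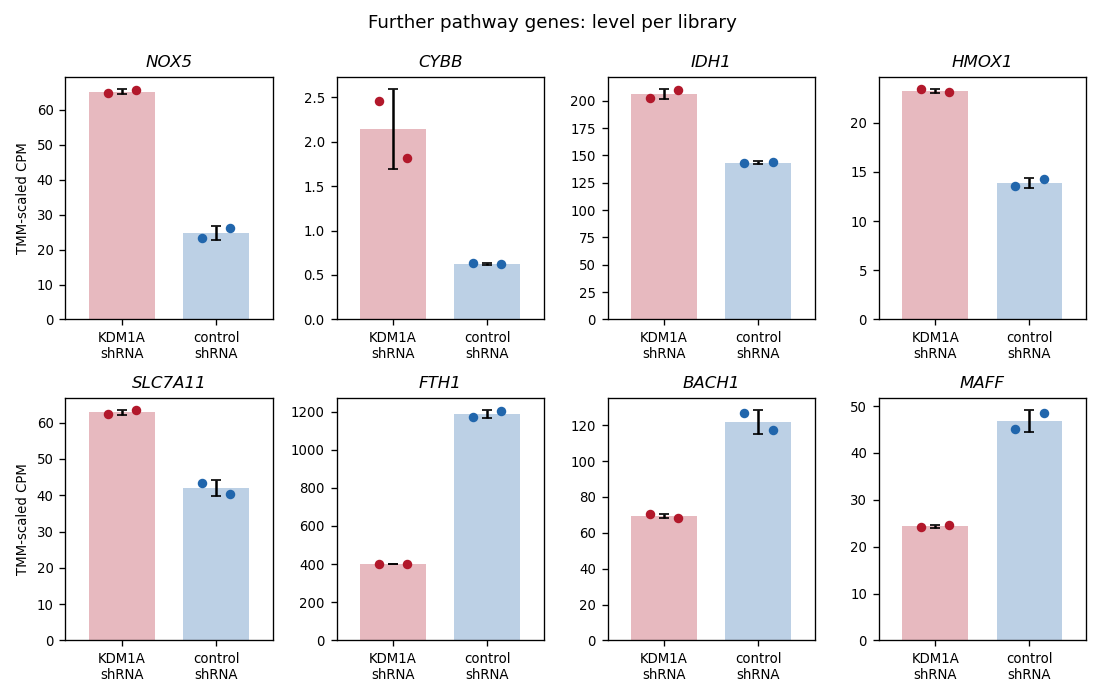
Points are TMM-scaled CPM of single libraries, bars their mean and error bars the SD (n = 2 per group), for 8 further pathway genes. NOX5, CYBB, IDH1, HMOX1 and SLC7A11 are higher in KDM1A shRNA cells, and FTH1, BACH1 and MAFF are lower, with FTH1 at 402 and 401 CPM against 1173 and 1203 CPM in the controls.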

How the data were processed

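The submitters deposited raw read counts by gene symbol, in whole numbers. Per the submitters' processing notes, the tools were CASAVA 1.8.2, TopHat2 2.0.8b and HTSeq, on hg19. Alignments that were not unique, 29.7% to 32.2% of each file's total, and the other HTSeq summary lines (5 in all) were left out, which lowers genes with close copies.

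Counts were filtered with filterByExpr (minimum count 10, minimum total 15), scaled by TMM and tested with edgeR 4.0.16 (quasi-likelihood, R 4.3.3) on group alone, with Benjamini-Hochberg adjustment over 14012 genes. SE is |log2 fold change| over the root of F, and 95% intervals use the t quantile. Permuting 2 against 2 libraries gives a smallest two-sided p of 0.333. Floors cover counting error only. On simulated counts with 200 of 14012 genes changed, edgeR found 82% of the 1.5-fold and 100% of the 4-fold changes, and 10 of 187 calls were false. The simulation changed equal numbers up and down, with dispersions taken from these libraries, while 56.1% of genes were called in the data. Its rates need not hold for these data.

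The members and lists were chosen with earlier results of these data known. The rule for per-library values took members changed by 1.5-fold or more, the most abundant of each role, and up to 4 further genes per direction with the smallest adjusted p. Per-library values of other genes were chosen after their values were seen. Positions and transcript lengths are from GENCODE (GRCh37). Alternatives were other scalings and filters, DESeq2 1.42.0, limma-voom (limma 3.58.1), the replicate number as a block, each library left out, and, chosen after seeing the data, a fit leaving out the 275 genes at least 16-fold lower, none of them a member. Some results are not reported here.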

Additional observations from a re-analysis of the deposited data

How the results depend on the processing

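Of 711 single-gene values recomputed, 669 kept their direction and their side of the threshold, 15 calls were lost, 14 were gained and 13 values changed sign. The sign changes were in members not called. With upper quartile scaling the log2 values were -0.0019 for GPX1, -0.023 for PRDX3 and -0.0017 for TXN2, and PRDX3 was at -0.019 with a minimum mean of 5 CPM and -0.0025 when genes at least 16-fold lower were left out. With 1 library left out, the log2 values ran from -0.039 to 0.089 for GPX1, -0.043 to 0.051 for PRDX3, -0.0017 to 0.22 for TXNRD2, -0.00047 to 0.11 for GSTP1, -0.087 to 0.023 for GSTM3 and -0.081 to 0.0018 for NFE2L2. The cause was not tested. With 1 library left out, 14 to 22 members were higher and 7 to 12 lower, and the median over members was -0.0026 to 0.050. In those fits the lone library of a group is assumed to vary like the others. Further pathway genes called lower numbered 11 to 22 with 1 library left out. The count of members higher by 2-fold or more was 0 with upper quartile scaling and with a minimum mean of 5 CPM, where GGT1 fell just short, and 0 to 1 with 1 library left out. In DESeq2, 17 members were higher and 8 lower. Over all genes, upper quartile scaling gave 3490 higher and 4401 lower. Same-numbered libraries did not deviate together across all genes (r = 0.011, genes not being independent). With 2 libraries per group this cannot show whether the numbers mark a shared batch, which could touch only some genes. With the replicate block, 18 members were higher and 10 lower, 5 and 3 by 1.5-fold or more, 1 and 2 by 2-fold or more, with a median of 0.024, and 21 and 21 further genes were called, among 3978 higher and 4164 lower over all genes. Depth limits SOD3, GPX7, GSTM2 and AKR1C1 most, which have no value with a minimum mean of 5 CPM.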

Other observations

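The members were also grouped by where their proteins reside. Over all genes tested 56.1% were called, 27.3% as higher and 28.8% as lower. Of 7 mitochondrial members, GLRX2 and GSTK1 were higher, SOD2 and PRDX5 were lower and 3 were not called, and the median log2 fold change was 0.024. Their summed level was 905 and 930 CPM in the KDM1A shRNA libraries and 1606 and 1591 CPM in the controls. Without SOD2 the other 6 summed to 738 and 766 CPM in the KDM1A shRNA libraries and 728 and 751 CPM in the controls. Of 6 members of the endoplasmic reticulum and its membrane, PRDX4, GPX8, MGST2 and MGST3 were higher, 0 were lower and 2 were not called, with a median of 0.24. The MGST2 and MGST3 calls were lost without KDM1A shRNA library 1 (edgeR adjusted p = 0.052 and 0.098). Their summed level was 708 and 695 CPM in the KDM1A shRNA libraries and 649 and 673 CPM in the controls. Of 5 selenoproteins tested, GPX3 and TXNRD1 were higher, GPX4 was lower and 2 were not called, with a median of 0.11. The summed level of all 47 members was 7794 and 7821 CPM in the KDM1A shRNA libraries and 9464 and 9412 CPM in the controls. Without SOD2 and TXNIP the other 45 summed to 6927 and 6972 CPM in the KDM1A shRNA libraries and 6686 and 6757 CPM in the controls.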
